A study of Mus musculus with 15 samples.

Results

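The Bcl2 family was followed here through 10 of its genes, Bcl2, Bcl2l1, Bcl2l2, Mcl1, Bax, Bak1, Bok, Bad, Bid and Bcl2l11, taken by their symbols from the 32285 genes counted in every library. All 10 symbols were found, each in 1 row. Single-cell RNA was counted in 15 libraries of dissociated testis from adult male DBA/2J mice, 1 testis of 1 mouse per library, in 5 groups of 3. T mice had received JQ1, an inhibitor of the BET bromodomain proteins that include the testis protein BRDT, at 50 mg/kg by daily intraperitoneal injection for 3 wk, and their testes were taken at once at 10 wk of age. VC-T mice had received vehicle on that schedule and were also 10 wk old. R mice had received the same JQ1 course and then 6 wk without it, and VC-R mice the vehicle course and the same pause, both reaching 16 wk. UC mice were untreated and 15 wk old. Age and injection therefore differ between UC and T, and cannot be told apart from JQ1 where UC is the only control.

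Proteins of this family decide whether the outer membrane of the mitochondrion is opened, the step that releases cytochrome c and starts the caspases. Bcl2, Bcl2l1 (Bcl-xL), Bcl2l2 (Bcl-w) and Mcl1 hold the membrane closed and are called survival members here. Bax, Bak1 and Bok are effectors that form the pore, while Bad, Bid and Bcl2l11 (Bim) carry only the BH3 domain, by which they bind the survival members or the effectors. In the testis this balance is known for the wave of germ cell death that trims the number of spermatogonia, and loss of Bax or of Bcl2l2 is known to make male mice sterile.

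The 10 genes lie on 8 chromosomes (GRCm38, GENCODE vM21). Among the survival members, Bcl2 spans chr1:106538178-106714274 (minus strand), Bcl2l1 chr2:152780668-152831728 (minus), Mcl1 chr3:95658788-95663176 (plus) and Bcl2l2 chr14:54883377-54888234 (plus). Of the effectors, Bok spans chr1:93685660-93695764 (plus), Bax chr7:45461697-45466898 (minus) and Bak1 chr17:27019810-27029009 (minus). Of the BH3-only members, Bcl2l11 spans chr2:128126038-128162547 (plus), Bid chr6:120891930-120916853 (minus) and Bad chr19:6941861-6951899 (plus). Bak1, Bad and Bid overlap genes on the other strand, among them Ggnbp1, to which 667093 unique molecular identifiers (UMIs) were assigned across all cells, against 252 for Bak1 in control spermatocytes. The reads come from the 3′ ends of transcripts and do not tell splice forms apart, such as the long and short forms of Bcl2l1.

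With the main scaling used below, the 2 members with the largest log2 steps between neighbouring germ cell classes in controls were Bax (-4.34) and Bcl2l11 (4.33). Among germ cells Bax was highest before meiosis and Bcl2l11 after it. With total UMIs as the scale, the step of Bid (-4.05) was larger than that of Bcl2l11 (3.97). The 250 bases before the first bases of Bax and Bcl2l11 are shown, a choice made after their values were seen (RefSeq, GRCm38.p6, each 5′ to 3′ on its gene's strand). Capitals mark GC boxes, the letters GGGCGG on either strand. The Bax stretch is chr7:45466899-45467148 (minus) and that of the first of 2 Bcl2l11 start sites is chr2:128125788-128126037 (plus).
Bax: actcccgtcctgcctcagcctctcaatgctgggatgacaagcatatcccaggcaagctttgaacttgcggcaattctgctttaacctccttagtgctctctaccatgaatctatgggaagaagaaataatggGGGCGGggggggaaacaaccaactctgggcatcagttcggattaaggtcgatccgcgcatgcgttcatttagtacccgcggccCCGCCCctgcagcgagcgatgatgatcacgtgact
Bcl2l11: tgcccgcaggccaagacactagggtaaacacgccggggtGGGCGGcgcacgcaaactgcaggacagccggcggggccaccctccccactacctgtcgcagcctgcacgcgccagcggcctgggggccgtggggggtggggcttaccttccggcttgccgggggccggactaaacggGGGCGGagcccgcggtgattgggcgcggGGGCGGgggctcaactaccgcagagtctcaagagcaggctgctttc
The Bax stretch held 2 GC boxes at 54.0% G and C, and the Bcl2l11 stretch held 3 at 72.0%. Such a box was present in 32.7% of 32851 RefSeq promoter stretches of the same length, and a cyclic AMP response element core, TGACG on either strand, in 17.8% of them and in neither of these. Entries were matched for all 10 members, 14 stretches in all. A match describes letters only.

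Cells were sorted into classes by clustering without the members or the apoptosis genes below. The marker genes were not left out as a list, so clusters and their names can rest on the same genes. Clusters were named by markers as spermatogonia-like, spermatocyte-like, spermatid-like, spermatozoa-like and so on, written below without the suffix. Of 72362 cells kept, 2430 to 12744 per library, 1825 were spermatogonia, 17684 spermatocytes, 20869 spermatids, 24348 spermatozoa and 4115 Sertoli cells. Libraries held 9673587 to 98724982 UMIs in all, with a median of 2470.5 to 4278 UMIs per cell, and 675 cell barcodes (0.942%) occurred in more than 1 library. T libraries held 7 spermatozoa between them, so no member was tested in that class for T. The vehicle library VC-T 1 held 0. Its median mitochondrial share per cell was 0.693%, against 0.953 to 1.259% in the T libraries. VC-T 2 and 3 were at 0.289 and 0.098%, and UC libraries at 0.029 to 0.081%. The part of these differences in the members' values was not tested. VC-T 1 stood apart in the study's own quality checks and was left out of its differential tests. It is left out of tests and of control means here too, and its values are given beside the results it touches. The values are UMIs of a gene per 1000000 UMIs of the class in a library (CPM). In 3′ counting a molecule gives 1 UMI whatever its length, so CPM are set side by side between genes without dividing by length, though how well each transcript was captured was not measured.

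The members changed places along normal spermatogenesis. In the 8 control libraries (UC, VC-R and VC-T 2 and 3), Bax and Bid were highest in spermatogonia, Bcl2l1, Bad and Bak1 in spermatocytes, and Mcl1 and Bcl2l11 after meiosis. Between neighbouring stages, 18 of 21 tests of members passed an adjusted p of 0.05 (edgeR quasi-likelihood test with the library as a block, 7 members in 3 steps). Of all 15240 genes, 69.8% passed from spermatogonia to spermatocytes, 88.5% from spermatocytes to spermatids and 72.3% from spermatids to spermatozoa, so most genes differ between stages and the members' count is not particular to them. The 3 tests that missed were those of Bax (0.29 ± 0.419, adjusted p = 0.544), Bak1 (0.10 ± 0.493, adjusted p = 0.871) and Bid (1.04 ± 0.554, adjusted p = 0.101) from spermatids to spermatozoa, as log2 differences with SE. Scaled by total UMIs, Bax (-1.07, adjusted p = 0.0133) and Bak1 (-1.20, adjusted p = 0.0252) were called lower in that step. Bcl2, Bcl2l2 and Bok had too few UMIs to be tested.

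Among survival members, Bcl2l1 and Mcl1 peaked at different stages. Bcl2l1 lay between 0 and 78.2 CPM in control spermatogonia (median 53.5, mean 51.2 ± 25.4, SD, n = 8), between 80.0 and 107 CPM in spermatocytes (median 104), between 21.9 and 36.7 in spermatids (median 26.5) and between 1.90 and 6.24 in spermatozoa (median 3.81). Spermatocytes lay above spermatogonia and spermatids in all 8 libraries without overlap. On the log2 scale Bcl2l1 rose by 1.59 ± 0.163 (SE, adjusted p = 8.95e-12) on entry to meiosis and then fell by 1.48 ± 0.114 (adjusted p = 7.44e-16) in spermatids and by 1.44 ± 0.15 (adjusted p = 1.21e-11) in spermatozoa. With total UMIs in place of the trimmed mean of M values (TMM) as the scale, these 3 steps were 0.94, -1.85 and -2.82.

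Mcl1, whose protein is short-lived in most cells, was the member that stayed high throughout. It lay between 63.6 and 95.3 CPM in spermatogonia (median 83.2), 81.1 and 92.6 in spermatocytes (median 85.1), 126 and 141 in spermatids (median 136) and 117 and 146 in spermatozoa (median 138). Spermatids did not overlap with spermatocytes, whereas spermatogonia overlapped with spermatocytes and spermatids with spermatozoa. From spermatocytes to spermatids it rose by 1.04 ± 0.10 on the log2 scale (adjusted p = 7.24e-13). The other steps, 0.70 ± 0.132 before (adjusted p = 9.36e-06) and 1.39 ± 0.0995 after (adjusted p = 1.36e-16), came to 0.02 and 0.01 when sums were scaled by total UMIs.

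Bcl2 and Bcl2l2 were barely seen in germ cells. Bcl2 had 6 UMIs in control spermatogonia, 5 in spermatocytes, 2 in spermatids and 2 in spermatozoa, counts too low to order. Bcl2l2 had a mean of 4.54 ± 3.58 CPM in spermatogonia (12 UMIs), 1.05 ± 0.417 in spermatocytes and 0.513 ± 0.453 in spermatids (SD, n = 8), with 2 of 8 spermatogonia libraries at 0. In Sertoli cells Bcl2l2 had 16.0 ± 13.8 CPM and ranged from 0 to 41.7.

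Of the effectors, Bax was, among germ cells, almost wholly a transcript of spermatogonia and early meiosis. It lay between 143 and 392 CPM in control spermatogonia (median 293) and had means of 23.6 ± 9.13 CPM in early spermatocytes, 1.54 ± 0.660 in late spermatocytes, 0.988 ± 0.532 in spermatids and 0.467 ± 0.168 in spermatozoa (SD, n = 8). No spermatocyte library reached the lowest spermatogonia library. The fall was 4.34 ± 0.153 on the log2 scale into spermatocytes (adjusted p = 1.26e-26), and Bax decreased by a further 2.77 ± 0.251 into spermatids (adjusted p = 1.14e-13). The spermatid value rests on 32 UMIs, and the summed spermatogonia markers stood at 8.97 to 20.6 CPM in control spermatids against 1744 to 2350 in spermatogonia. What part RNA released from other cells has in such low values was not tested.

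Bak1, the partner of Bax in many tissues, was a low transcript of spermatocytes. Its level was 1.28 ± 3.18 CPM in control spermatogonia (4 UMIs, 6 of 8 libraries at 0), 6.54 ± 0.931 in spermatocytes, 0.746 ± 0.378 in spermatids and 0.299 ± 0.320 in spermatozoa. The spermatocyte libraries, 5.34 to 7.92 CPM, did not overlap with the spermatid libraries, 0.312 to 1.56. It rose by 2.57 ± 0.585 (adjusted p = 0.000142) into spermatocytes and fell by 2.74 ± 0.301 (adjusted p = 3.02e-11) into spermatids, both on the log2 scale. Bok, which can act without Bax and Bak1, was at 15.8 ± 10.6 CPM in spermatogonia and under 1 CPM in the later classes, at 0.317 in spermatocytes, 0.203 in spermatids and 0.15 in spermatozoa.

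The BH3-only members split between meiosis and its 2 sides. Bad, which is held inactive by survival signals through phosphorylation, lay between 27.2 and 89.4 CPM in control spermatogonia (median 37.5), 117 and 139 in spermatocytes (median 133), 22.5 and 38.2 in spermatids (median 28.6) and 5.32 and 11.3 in spermatozoa (median 8.56). Within meiosis it was higher late than early, 147 ± 8.24 against 98.8 ± 11.1 CPM. Bad rose by 2.40 ± 0.148 (adjusted p = 8.28e-19) and then fell by 1.81 ± 0.0981 (adjusted p = 3.54e-21) on the log2 scale, and the steps were 1.76 and -2.18 with total UMIs. Bcl2l1, a survival member that Bad is known to bind, rose and fell at the same steps.

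Bid, which links death receptors to mitochondria, lay between 20.1 and 36.2 CPM in control spermatogonia (median 26.0, 67 UMIs) and at 1.48 ± 0.522 in spermatocytes, falling by 3.38 ± 0.292 on the log2 scale (adjusted p = 5.26e-14). In spermatids it was at 0.265 CPM from 9 UMIs.

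Bcl2l11 was lowest in meiosis and highest after it. Its CPM lay between 20.1 and 53.5 in control spermatogonia (median 39.7), 4.16 and 13.5 in spermatocytes (median 5.44), 82.7 and 187 in spermatids (median 109) and 58.8 and 147 in spermatozoa (median 85.2). Each step to spermatids separated the libraries completely, a fall of 1.76 ± 0.272 (adjusted p = 1.93e-07) and then a rise of 4.33 ± 0.173 (adjusted p = 8.88e-26) on the log2 scale. The step to spermatozoa was 1.01 ± 0.136 with TMM (adjusted p = 8.95e-09) but -0.37 with total UMIs, so its direction depends on the scaling. Over the whole set of 21 tests, 8 were higher and 10 lower in the later stage with TMM, against 5 and 13 with total UMIs. The median of all genes over the 3 steps was 0.39, -0.08 and -0.18 with TMM and -0.26, -0.46 and -1.52 without it.

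**Figure D1:**
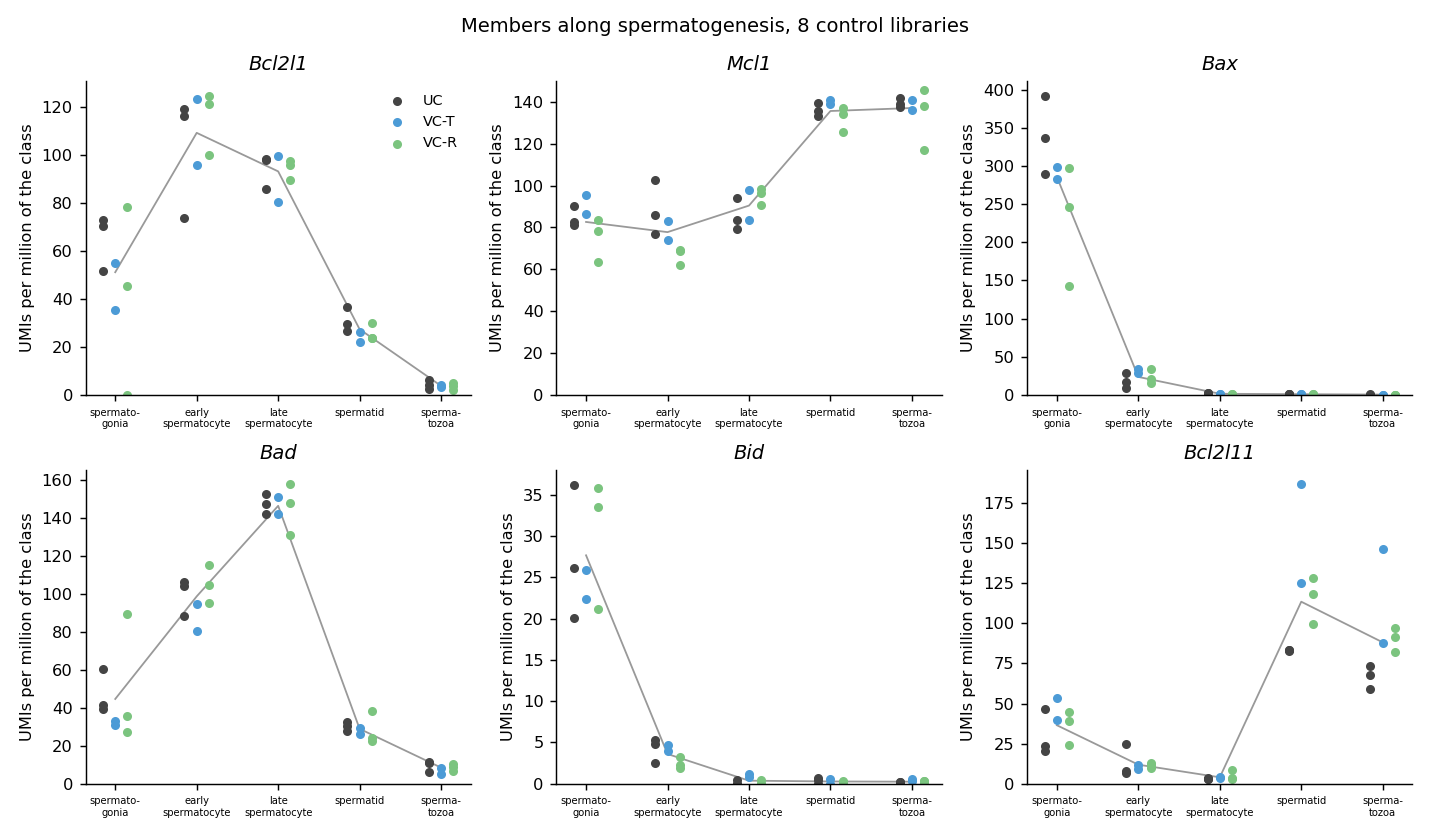
CPM (linear axes from 0) of 6 members in spermatogonia, early and late spermatocytes, spermatids and spermatozoa, 1 point per control library, coloured by group (UC, VC-T 2 and 3, VC-R), with a line through the means. Bax stands at 143 to 392 in spermatogonia and near 0 later, Bcl2l1 and Bad peak in spermatocytes, and Bcl2l11 lies at 82.7 to 187 in spermatids.

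In the somatic classes the order of members was different. Control Sertoli cells had Mcl1 at 93.3 ± 12.9 CPM, Bcl2l11 at 60.5 ± 22.4, Bax at 57.7 ± 14.7, Bad at 47.5 ± 15.1, Bok at 40.3 ± 17.9 and Bcl2l1 at 17.8 ± 18.7 (SD, n = 8). Bax and Bok there were far above their levels in spermatids, whereas Mcl1 and Bcl2l11 are also the main members of spermatids and spermatozoa. The 5 spermatozoa markers summed to 4003 to 13503 CPM in control Sertoli cells against 14082 to 20830 in spermatozoa, and their part in these 2 levels was not tested. Leydig, macrophage and myoid cells were few (84, 53 and 64 cells over all 8 control libraries). Only 5, 2 and 3 of these libraries held at least 10 such cells, and both of those for macrophages were VC-R. In them Mcl1 was at 77.5, 122 and 119 CPM from 16, 4 and 12 UMIs, and Bid at 0 in each class.

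The balance of the family shifted with these changes. In control spermatogonia the survival members held 25.3 ± 1.84% of the UMIs of the 10 members (SD, n = 8 libraries, range 21.6 to 27.3%), with Bax alone at 51.4%. In spermatocytes they held 54.5 ± 1.83%, with Bad at 38.4%, Bcl2l1 at 28.8% and Mcl1 at 25.3% of the members' UMIs. In spermatids the share was 53.5 ± 5.46% with other members in front, Mcl1 at 44.3% and Bcl2l11 at 36.2%, and in spermatozoa it was 59.6 ± 6.10% with Mcl1 at 57.9%. Sertoli cells had 37.9 ± 5.60%. No test is given for a share summed over chosen members, and an mRNA share is not a share of protein.

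**Figure D2:**
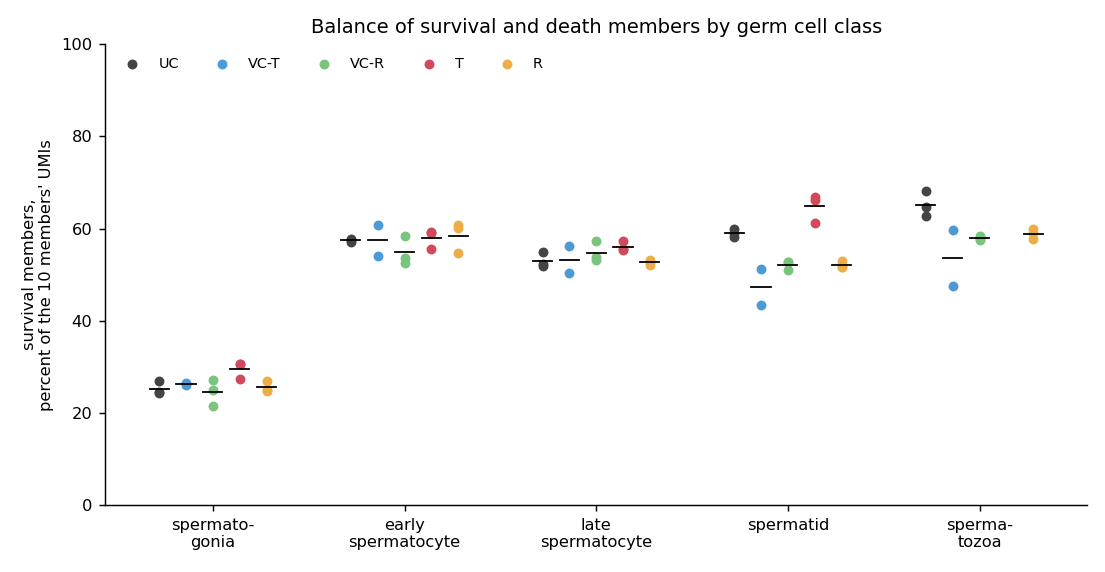
Survival members (Bcl2, Bcl2l1, Bcl2l2, Mcl1) as a percent of the UMIs of all 10 members, 1 point per library with at least 10 cells of the class but VC-T 1, coloured by group, with a dash at each group's mean and the axis from 0 to 100%. Control spermatogonia lie at 21.6 to 27.3%. In spermatids the 3 T libraries (61.3, 66.9 and 66.3%) lie above the UC libraries (58.2, 59.8 and 59.1%), with cells not matched on cluster.

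After 3 wk of JQ1, T was compared with UC to see which members differ at the end of treatment. Bax was lower in spermatogonia, and in spermatids Bad was higher and Bcl2l11 lower, while none of 7 tested members was called in spermatocytes. These are 3 calls in 16 tests over 3 germ classes, at an adjusted p of 0.05 over all genes of the class. Of all genes, 7.9% were called in spermatogonia, 3.83% in spermatocytes and 43.3% in spermatids (19.1% higher and 24.2% lower), so 2 of 4 members called in spermatids is near the background. None of the 3 passed the further threshold of the study, an absolute log2 change over 1, which 5.42% of genes passed in spermatogonia and 13.4% in spermatids.

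Bax in spermatogonia was at 225, 231 and 240 CPM in T 1, 2 and 3 and at 392, 290 and 337 CPM in UC 1, 2 and 3. The groups did not overlap, and all T libraries were lower, as for 24.3% of all genes tested in this class. Bax fell by 0.55 ± 0.162 on the log2 scale (SE, adjusted p = 0.0388; 1.89% of genes were called lower). VC-T 2 and 3 stood at 282 and 298 CPM, VC-T 1 at 164, and VC-R at 143, 297 and 246, so the controls as a whole overlapped with T. In the same cells the late spermatocyte markers summed to 2314 to 2905 CPM in T and 838 to 1446 in UC, and their part in the Bax value was not tested. The call was lost by leaving out any library but UC 2 (adjusted p = 0.0863 to 0.204), by DESeq2 (adjusted p = 0.23), and with coarser clusters (0.04 on the log2 scale) or doublets kept (-0.01). Other members in these cells were not called over all cells: Mcl1 was at 92.1 ± 10.2 CPM in T and 84.7 ± 5.00 in UC, Bcl2l1 at 58.1 ± 13.2 and 65.1 ± 11.6, Bad at 58.8 ± 7.27 and 46.9 ± 11.6, and Bcl2l11 at 48.2 ± 4.84 and 30.1 ± 14.4 (SD, n = 3 each). Bad was called higher among cells of at least 2000 UMIs (1.19, adjusted p = 0.0211; 1.38, adjusted p = 0.00324 against VC-T), and Bcl2l11 with coarser clusters (0.98, adjusted p = 0.0432).

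In spermatocytes, the stage at which BRDT is first made, no member was called over the whole class. Bcl2l1 was at 108 ± 0.700 CPM in T and 96.8 ± 14.5 in UC, Bad at 129 ± 9.36 and 128 ± 11.0, Mcl1 at 94.0 ± 6.52 and 86.8 ± 5.75, and Bcl2l11 at 8.35 ± 2.45 and 7.71 ± 5.08 (SD, n = 3 each). None of the 7 members tested had an unadjusted p under 0.05 by edgeR, which 20.2% of genes had, and DESeq2 called none of them. With coarser clusters Bcl2l11 was called higher in T (1.09 on the log2 scale, adjusted p = 0.0215), and in the late spermatocyte cluster led by 4930581F22Rik it was at 6.72 ± 1.14 CPM in T and 2.36 ± 0.256 in UC. UC 1 stood apart in the whole class, at 13.5 CPM against 5.44 and 4.16 in UC 2 and 3.

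Spermatids held the clearest changes. Bcl2l11 was at 75.1, 49.1 and 42.6 CPM in T 1, 2 and 3 and at 82.7, 83.4 and 83.5 CPM in UC 1, 2 and 3. All T libraries lay below UC, and they also lay below VC-T 2 and 3 at 125 and 187 CPM and below VC-R at 99.4, 129 and 119 CPM. The library left out, VC-T 1, was at 54.9 CPM, inside the T range. The fall against UC was 0.73 ± 0.163 on the log2 scale (adjusted p = 0.00263), and it stayed called by DESeq2 (adjusted p = 8.56e-05) and without any 1 library (largest adjusted p = 0.0168).

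Bad in spermatids moved the other way, with 41.7, 47 and 51.7 CPM in T 1, 2 and 3 against 30.4, 27.8 and 32.4 in UC. T lay above UC and above every control library but VC-T 1 (50.5 CPM). The rise was 0.41 ± 0.123 on the log2 scale (adjusted p = 0.0147). It was not called by DESeq2 (adjusted p = 0.0561) or without T 2 or UC 2 (adjusted p = 0.0502 and 0.0567).

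The survival members in spermatids gave no call against UC. Bcl2l1 was at 46.1, 41.3 and 38.6 CPM in T and at 26.5, 29.7 and 36.7 in UC, a difference of 0.24 on the log2 scale (adjusted p = 0.169). Mcl1 was at 143, 158 and 152 CPM in T and at 135, 139 and 133 in UC, and on the TMM scale differed by -0.05 ± 0.0769 (adjusted p = 0.634). Its direction depended on the setting. With doublets kept Mcl1 was called lower (-0.21, adjusted p = 0.0362), as it was against VC-T without the spermatid clusters of few UMIs per cell (-0.31, adjusted p = 0.0243). With cells matched on cluster it was at 0.24 against UC and 0.30 against VC-T, neither called. All 4 tested members had groups that did not overlap in CPM, as had 63.2% of all genes. TMM rescaled this class, and the median difference of all genes was 0.04 with TMM and 0.23 without it. With total UMIs Bcl2l1 was called higher as well (0.43, adjusted p = 0.0176), while Bad (0.61) and Bcl2l11 (-0.53) stayed called.

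**Figure D3:**
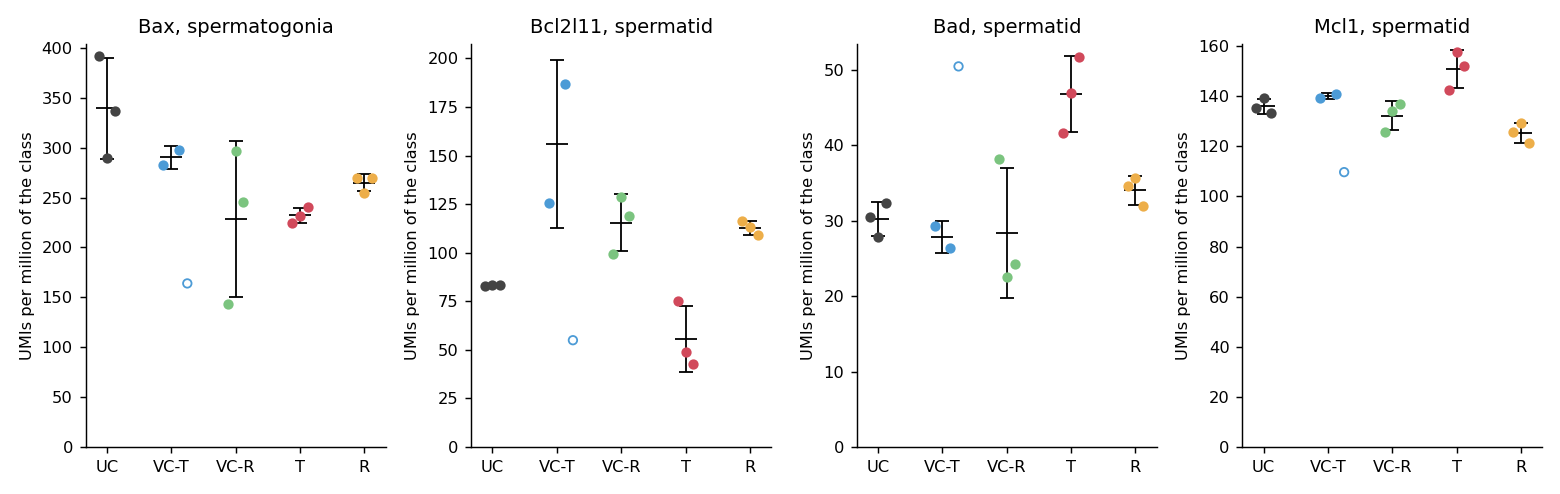
CPM of Bax in spermatogonia and of Bcl2l11, Bad and Mcl1 in spermatids, 1 point per library in UC, VC-T, VC-R, T and R, on linear axes from 0, with mean and SD in black and VC-T 1 as an open circle outside the mean. In spermatids Bcl2l11 lies at 42.6 to 75.1 in T and at 82.7 to 187 in the control libraries used, and Bad at 41.7 to 51.7 in T and 22.5 to 38.2 in them.

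Against vehicle mice of the same age, T spermatids showed the same directions with wider steps. These steps rest on 2 VC-T libraries whose spermatids were made up unlike each other, as given below. Bcl2l11 fell by 1.67 ± 0.252 on the log2 scale (55.6 ± 17.2 CPM, n = 3, against 156 ± 43.4, n = 2; adjusted p = 0.000801), Bcl2l1 rose by 0.60 ± 0.152 (adjusted p = 0.0130) and Bad by 0.53 ± 0.145 (adjusted p = 0.0185). These 3 of 4 members stood beside 35.5% of all genes called, and the comparison shares its T libraries with the one above. In spermatogonia and spermatocytes no member was called of 6 and 7 tested by edgeR or by DESeq2, with 2 and 1 at an unadjusted p under 0.05 (24.9% and 23.7% of genes), and 13.3% and 8.21% of genes called. Kept in the fit, VC-T 1 ended all 3 calls (Bcl2l11 -1.33, adjusted p = 0.157). Without T 2, Bcl2l11 alone was called, and the adjusted p of Bcl2l1 was 0.0558 and that of Bad 0.0824. Bad was also not called without T 3, by DESeq2 or with coarser clusters. Bcl2l1 was also not called without T 1 or with the replicate number as a block.

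The spermatid class itself was made up differently in T. Of T spermatids, 38.4 ± 5.10% lay in the cluster led by Gm5458 and Ssxb2, against 15.9 ± 3.55% of UC spermatids, and 2.12 ± 1.82% lay in the cluster led by Gm37294 and Banf2, against 22 ± 2.53% (SD, n = 3 each). The 7 spermatocyte markers summed to 759 to 786 CPM in T spermatids and 411 to 456 in UC, and the 5 spermatozoa markers to 3035 to 3463 and 4994 to 5613. Bcl2l11 climbed across these clusters in controls, from 13.0 ± 4.64 CPM in the Gm5458 cluster and 21.3 ± 5.52 in the cluster led by Smco4 to 89.3 ± 35.7 in the one led by 1700001P01Rik and 219 ± 56.1 in the Gm37294 cluster. Bad went down over the same clusters, at 75.6, 47.2, 16.0 and 9.46 CPM, while Mcl1 went up, at 94.0, 98.6, 136 and 180.

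Within clusters the T and UC levels of Bcl2l11 were not lower in T. In the Gm5458 cluster Bcl2l11 was at 13.7 ± 0.688 CPM in T and 13.2 ± 3.55 in UC, in the 1700001P01Rik cluster at 91.1 ± 15.6 and 54.7 ± 10.5, and in the Gm37294 cluster at 208 ± 32.3 (n = 2) and 167 ± 13.2 (n = 3). With the same number of cells drawn from each cluster in every library, the difference over spermatids was 0.26 ± 0.14 on the log2 scale (adjusted p = 0.198), in place of a fall of 0.73. Bad was at 0.21 (adjusted p = 0.428) under the same matching, and none of the calls against UC or VC-T remained. Against VC-T, matched Bcl2l11 was at -0.46 ± 0.178 (adjusted p = 0.0944). Mcl1 was at 134 ± 13.0 CPM in T and 91.7 ± 7.92 in UC in the Gm5458 cluster. It was at 136 ± 10.3 and 97.0 ± 18.6 in the Smco4 cluster, and at 179 ± 18.3 and 149 ± 12.1 in the 1700001P01Rik cluster. In none of these did T and UC libraries overlap. In the clusters led by Agbl1, Tomm20l and Ppfia2, which held few T cells, mean Mcl1 was lower in T.

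**Figure D4:**
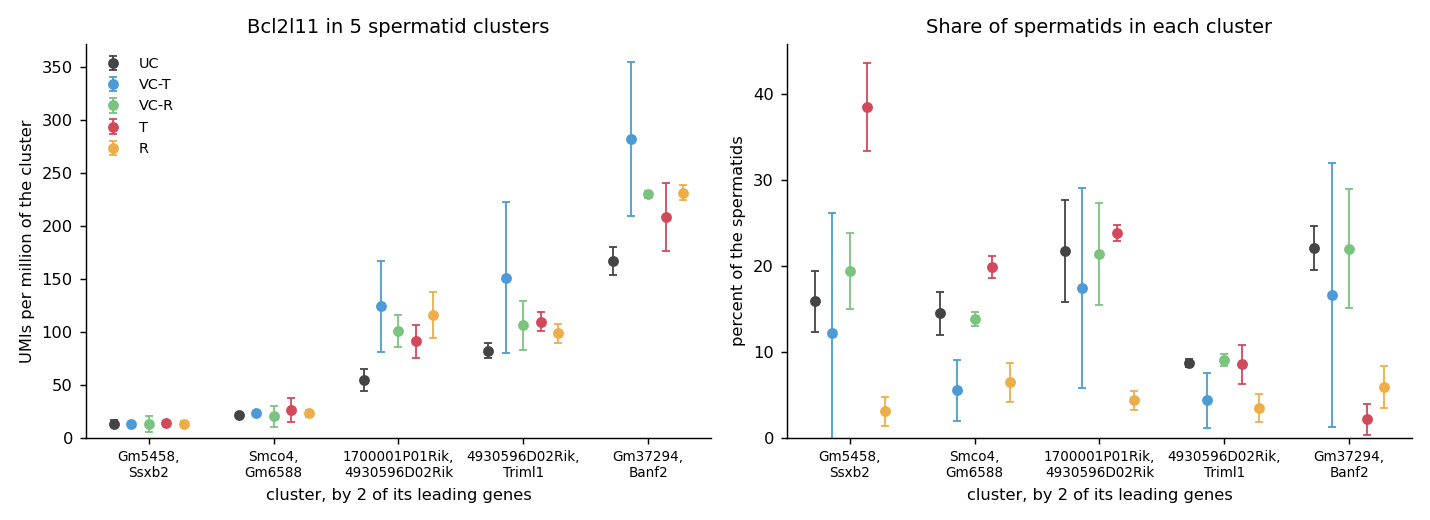
Bcl2l11 in CPM (first panel) and the percent of a library's spermatids (second panel) in 5 spermatid clusters, named by 2 leading genes each, as mean and SD over the libraries of each group, on linear axes from 0, at which 1 VC-T bar is cut off. The Gm5458 cluster holds on average 38.4% of a T library's spermatids and 15.9% of a UC library's, and Bcl2l11 there is at 13.7 CPM in T and 13.2 in UC and is highest in the Gm37294 cluster.

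Whether the T effect differs between spermatocytes and spermatids was tested directly. Bcl2l11 gave a difference of -1.0 ± 0.400 on the log2 scale (adjusted p = 0.245) and Bad 0.37 ± 0.133 (adjusted p = 0.200). No member of 6 tested passed, with 2 at an unadjusted p under 0.05 by edgeR (17.6% of genes) and 1.8% of all genes called, so a difference between the classes was not shown. Without UC 1 Bcl2l11 passed (-1.71, adjusted p = 0.00117).

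The share of survival members in T followed the single genes. In spermatids it was 61.3, 66.9 and 66.3% in T 1, 2 and 3 (64.8 ± 3.08%) against 58.2, 59.8 and 59.1% in UC (59.0 ± 0.821%), 51.3 and 43.3% in VC-T 2 and 3, and 52.8, 51.0 and 52.7% in VC-R. T lay above all control libraries used, and VC-T 1 was at 58.5%. These shares are over all spermatids, whose make-up by cluster differed between T and UC as given above. Bcl2l11, Bad and Mcl1 also differed between those clusters in controls. No share was taken within clusters or with matched cells, so the part of make-up in this difference was not tested. Exact 95% binomial intervals, which cover counting error only, ran from 59.3 to 63.2% in T 1, the lowest T library, and from 56.6 to 63.1% in UC 2, the highest UC library. In spermatogonia T stood at 27.5, 30.7 and 30.6% and UC at 24.6, 24.3 and 27.0%, with VC-T 1 at 38.3% (28.5 to 48.9%, from 94 UMIs). In spermatocytes T was at 56.6 ± 1.16% and controls at 54.5 ± 1.83%.

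After 6 wk without JQ1, R was compared with UC. Mcl1 was lower and Bcl2l11 higher in spermatids, and Bcl2l11 was higher in spermatozoa, 3 calls in 20 tests over 4 germ classes, none with an absolute log2 change over 1, which 8.46% of genes in spermatids and 0.669% in spermatozoa had. In spermatogonia and spermatocytes no member was called of 5 and 7 by edgeR, with 1 and 0 at an unadjusted p under 0.05 (9.77% and 11.5% of genes), and none by DESeq2. Of all genes 0.241% were called in spermatogonia, 0.0142% in spermatocytes, 44.8% in spermatids (23.8% higher and 21% lower) and 7.63% in spermatozoa (4.74% higher), so 2 of 4 members in spermatids is again near the background.

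Mcl1 in spermatids was at 126, 129 and 121 CPM in R 1, 2 and 3 and at 135, 139 and 133 CPM in UC 1, 2 and 3. R lay below UC without overlap, and 52.6% of genes had groups that did not overlap, yet VC-R reached down to 126 CPM. Mcl1 fell by 0.32 ± 0.0880 on the log2 scale (adjusted p = 0.00336). The step was -0.11 with total UMIs (adjusted p = 0.231), -0.05 without the 4 spermatid clusters of few UMIs per cell (adjusted p = 0.829; 0.455 to 0.567 of the library median), which held 79.6% of R and 18.1% of UC spermatids, and 0.03 matched on cluster (adjusted p = 0.929).

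Bcl2l11 in R spermatids stood at 116, 113 and 109 CPM, all above the UC libraries at 82.7, 83.4 and 83.5, and inside the VC-R range of 99.4 to 129. The rise against UC was 0.23 ± 0.0911 (adjusted p = 0.0373) and was lost in 5 of the 6 fits without 1 library (adjusted p = 0.0589 to 0.109), by DESeq2 (adjusted p = 0.123) and with doublets kept (0.08). It was 0.53 ± 0.0852 when matched on cluster (adjusted p = 2.66e-05). In spermatozoa R was at 86.7, 86.6 and 84.4 CPM against 67.6, 58.8 and 73.5 in UC, a rise of 0.33 ± 0.0753 (adjusted p = 0.00431; 0.36 ± 0.0726 and adjusted p = 0.000995 matched on cluster). The groups did not overlap, which held for 25.7% of genes in that class, and VC-R was at 91.2, 82.4 and 97.1 CPM. Without UC 2 the call in spermatozoa was lost (0.26, adjusted p = 0.0547). Matched spermatocytes gave Bcl2l11 a difference of 1.01 ± 0.248 (adjusted p = 0.0127) where the whole class gave 0.50 ± 0.401 (adjusted p = 0.682), and the class gave 1.25 (adjusted p = 0.0282) without UC 1 and 1.45 (adjusted p = 0.00139) with coarser clusters. Bax in R spermatogonia was called lower with coarser clusters (-0.65, adjusted p = 0.00635) and with doublets kept (-0.66, adjusted p = 0.0311). Sertoli markers summed to 82.7 to 106 CPM in R spermatids and 32.2 to 52.1 in UC, and in spermatozoa to 48.2 to 68.9 and 27.4 to 34.7, and their part in the result was not tested.

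Against VC-R of the same age, Bcl2l11 was not called in spermatids (113 ± 3.66 against 116 ± 14.8 CPM, -0.25 ± 0.114, adjusted p = 0.0885) or in spermatozoa (85.9 ± 1.28 against 90.2 ± 7.39 CPM, adjusted p = 0.38). Bcl2l1 rose by 0.36 ± 0.123 in spermatids (38.7, 34.6 and 40.1 CPM in R, 30.04, 23.8 and 23.9 in VC-R, adjusted p = 0.0274) and Mcl1 fell by 0.28 ± 0.0998 (126 ± 3.98 against 132 ± 5.82 CPM, adjusted p = 0.0333), beside 37.6% of all genes called. In the other germ classes 0% of all genes were called, among them 16 tests of members, 2 of which (Bcl2l11 in spermatocytes and Bcl2l1 in spermatozoa) had an unadjusted p under 0.05 by edgeR and none of which DESeq2 called. Of all genes 6.27% had such a p in spermatogonia, 4.23% in spermatocytes and 14% in spermatozoa. Both calls were lost when matched on cluster (Bcl2l1 0.12, adjusted p = 0.924; Mcl1 0.00396, adjusted p = 0.998) and without R 1, R 3, VC-R 2 or VC-R 3. The survival share in spermatids was 51.7, 51.7 and 52.9% in R, the level of VC-R and below UC. In spermatozoa UC held 65.2 ± 2.69%, VC-R 57.9 ± 0.429% and R 58.8 ± 1.07% (SD, n = 3 each). None of these shares was matched on cluster.

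**Figure D5:**
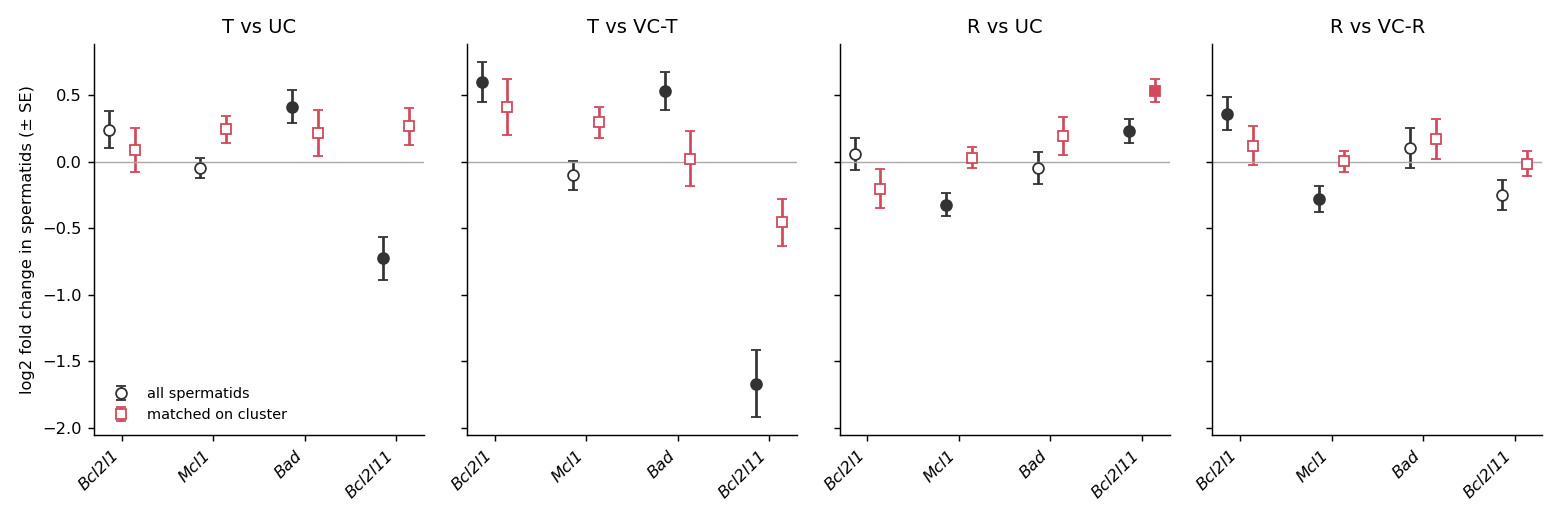
Log2 fold change (± SE) of Bcl2l1, Mcl1, Bad and Bcl2l11 in spermatids for the 4 comparisons, with all spermatids (circles) and with cells matched on cluster (squares), filled where the adjusted p is under 0.05. The fall of Bcl2l11 in T against UC, -0.73 over all spermatids, stands at 0.26 when matched.

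In Sertoli cells no member was called in any comparison by edgeR, of 3 tested in T against UC, 5 against VC-T, 7 in R against UC and 6 against VC-R, with 0, 0, 1 and 1 at an unadjusted p under 0.05. Of all genes, 0%, 8.92%, 15.8% and 2.93% were called there, and 3.84%, 26.7%, 34% and 24.9% had such an unadjusted p. Bok was at 22 CPM in R and 44.0 in UC (adjusted p = 0.134). T libraries held 86 Sertoli cells in all and R libraries 3180.

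The wider pathway was read through 46 further genes of mitochondrial apoptosis, its caspases, inhibitors and upstream signals. Along control spermatogenesis 30 of them were tested, and 12 were higher and 14 lower in spermatocytes than in spermatogonia, 6 higher and 20 lower in spermatids than in spermatocytes, and 4 higher and 12 lower in spermatozoa than in spermatids. In T against UC, Vdac2, a channel of the outer membrane known to bind Bak1, was the only 1 of 22 called in spermatogonia (0.74 on the log2 scale, 460 against 266 CPM, adjusted p = 0.00665). In spermatocytes 2 of 25 were called, Fadd, the adaptor of death receptors (1.31, 16.1 against 6.13 CPM, adjusted p = 0.0150), and Bag1, a co-chaperone that binds Bcl2 (-0.55, 310 against 423 CPM, adjusted p = 0.0271). Of all genes 7.9% were called in spermatogonia and 3.83% in spermatocytes.

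In T spermatids 12 of 20 pathway genes were called, 10 higher and 2 lower, with a median of 0.29 on the log2 scale beside 0.04 over all genes, of which 43.3% were called, 19.1% higher. Of the 10 higher genes, Diablo (-3.07), Bclaf1 (-1.99), Cyct (-1.72) and Bnip3 (-1.46) were lower in control spermatids than in spermatocytes. So were Birc2 (-1.32), Birc5 (-1.25) and Fadd (-0.95), and these genes are among the 20 lower in that step. Trp63 was higher in control spermatids (0.76), and Vdac2 (-0.22) and Vdac3 (-0.15) were not called in that step. The 2 genes lower in T spermatids, Bag1 (0.50) and Bcl2l14 (3.21), were higher in that step. The summed spermatocyte markers were higher in T spermatids (759 to 786 against 411 to 456 CPM). Their part in these counts was not tested. The smallest adjusted p values upward were those of Trp63, a relative of p53 known in germ cell quality control (1.75, 12.5 against 3.36 CPM, adjusted p = 5.95e-05), Fadd (1.46, 6.74 against 2.09 CPM, adjusted p = 0.00122) and Diablo, which blocks inhibitors of caspases (0.53, 89.2 against 54.2 CPM, adjusted p = 0.00291). Lower were Bag1 (-1.05, 231 against 416 CPM, adjusted p = 5.19e-08) and Bcl2l14, a distant family relative (-0.46, 255 against 305 CPM, adjusted p = 0.000155). With total UMIs 14 were higher and 2 lower, with a median of 0.48.

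In R against UC none of 18 pathway genes was called in spermatogonia and none of 26 in spermatocytes (0.241% and 0.0142% of all genes). In spermatids 5 of 22 were higher, led by Trp63 (1.40), Bclaf1 (0.76) and Birc6 (0.65), and 5 lower, among them Bcl2l14 (-0.43), Vdac3 (-0.35) and Vdac2 (-0.32), and with total UMIs 5 were higher and 1, Bcl2l14, lower. Of all genes 23.8% were called higher and 21% lower in spermatids, so these counts are near the background. The clusters of few UMIs per cell held 79.6% of R and 18.1% of UC spermatids, and their part in these counts was not tested. In spermatozoa 1 of 19 was called, Cycs, the somatic cytochrome c (0.73, 7.85 against 4.53 CPM, adjusted p = 0.00982), beside 7.63% of all genes. In Sertoli cells 2 of 18 were lower, Birc6 (-2.09, adjusted p = 0.00790) and Trp53 (-1.70, adjusted p = 0.0147), where 15.8% of all genes were called.

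Genes whose levels ran most like a member's were sought among 6997 genes over 32 sums of 8 control libraries and 4 germ classes. The values are Pearson's r of log2(CPM + 1), a description of shared stage pattern in the same libraries. Nearest to Bcl2l1 were Armc9 (0.985), Dhrs7b (0.976) and Nras (0.973), and nearest to Mcl1 were Fam8a1 (0.968), Ace (0.965) and Usp50 (0.962), Ace having a form made only in germ cells. Bax ran with Cks1b, Hp1bp3 and Suclg2 (0.992 each) and Bid with Pprc1 (0.991), Crlf3 (0.991) and Atic (0.990). Bad ran with Tarbp2 (0.982), Fnta (0.979) and Tmem230 (0.978), and Bcl2l11 with Cpxm1 (0.977), Mrps36 (0.973) and Rpf2 (0.959).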

How the data were processed

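Testis cells of 15 mice, 1 library per mouse, were made into 10x Genomics 3′ libraries. The authors aligned reads to mm10 and counted UMIs with Cell Ranger, and the deposited values are these raw counts per gene and cell barcode. The labels give Cell Ranger 3.0.0 and the matrix headers 7.0.0, and whether introns were counted is not given in the sources used here. The barcodes are those that Cell Ranger called as cells.

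Filters of 500 genes and 1000 UMIs per cell as minima and 30% mitochondrial UMIs as maximum were applied, and the 5.4% with the highest simulated-doublet score were removed per library. Clusters came from 2000 variable genes, 30 principal components, 20 neighbours and Leiden resolution 1.2 (Python 3.11.15, numpy 2.4.6, scipy 1.17.1, scikit-learn 1.9.0, leidenalg 0.10.2). A cluster was named by its leading marker list, of which 3 or more had to be seen in 10% of the cluster. Counts were summed per library and class (at least 10 cells), filtered for low counts, scaled by TMM and tested with edgeR 4.0.16 in R 4.3.3 (quasi-likelihood, Benjamini-Hochberg over all genes of a class), and the test was checked on simulated data. SE is the log2 change over the root of F. DESeq2 1.42.0, the study's tool, was an alternative. VC-T 1 was left out of tests, as in the study. Groups and ages came from the sample labels. No batch is marked in the labels. With 1 library per mouse, p-values measure the spread between libraries, which holds mouse and preparation together.

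The members, lists and tests were chosen with earlier results of these data known. All 10 members are named. Values per library are given for members called against UC, or at 20 CPM or more in a germ class of controls. Of the pathway genes, up to 3 per direction with the smallest adjusted p are named, and of similar genes the 3 highest correlations. For T spermatids the other called pathway genes are named too, with their stage steps. Scaling without TMM and leaving out low-UMI spermatid clusters were alternatives added after seeing the data.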

Additional observations from a re-analysis of the deposited data

How the results depend on the processing

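Counts of calls over the members depended on the setting. The 3 calls in T against UC became 1 with DESeq2 and 0 with cells matched on cluster, 4 among cells of at least 2000 UMIs, and 1 to 2 when each library was left out in turn, with 1 left without T 2. The 3 in T against VC-T became 0 when matched and 0 with VC-T 1 kept, 4 among cells of at least 2000 UMIs and 4 with doublets kept (with Bax in spermatocytes, 0.87), and ran from 1 to 3 without 1 library. Bad in spermatogonia was also called against VC-T without TMM (0.90, adjusted p = 0.0380). The 3 in R against UC became 1 with all groups in 1 fit, 1 with cells of at least 2000 UMIs and 4 at resolution 0.8, and ran from 1 to 3 without 1 library. The 2 in R against VC-R became 1 with DESeq2, with no filter on low counts, with doublets kept and without TMM, and 0 with the replicate block, when matched, with at least 2000 UMIs, at resolution 0.8 and without the low-UMI spermatid clusters, and ran from 0 to 3 without 1 library. The stage count of 18 ran from 18 to 19 without 1 library and was 21 with no filter and 16 with the UC libraries alone, and the count of members differing between spermatocytes and spermatids ran from 0 to 1 without 1 library. The matching and the settings with fewer cells rest on fewer cells by construction, and otherwise the cause was not tested.

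Reversed values were Bcl2l11 in spermatids for T against UC when matched (0.26), Bax in spermatogonia for T against UC at resolution 0.8 (0.0424), Mcl1 in spermatids when matched for R against UC (0.0292) and R against VC-R (0.00396), and Bcl2l11 from spermatids to spermatozoa without TMM (-0.37). Of the single-member values under alternatives, 228 of the stage values kept direction and side of the threshold and 5 fell short of it, and of the treatment values 106 kept both and 66 fell short.

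Same-numbered libraries did not deviate together in every pair (correlations -0.67 to 0.66). With groups of 2 or 3 libraries these values cannot show whether the numbers pair the mice. The fit with the replicate block gave 3 calls in T against UC, 2 in T against VC-T, 3 in R against UC and 0 in R against VC-R.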
